A study of Mus musculus with 21 samples.

Results

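The comparison set lungs taken 3 weeks after bleomycin against control lungs in 3 inbred mouse strains pooled, and asked which genes moved in the same direction and by a similar size in each strain. It used 14 of the 21 arrays of the series, all 8 arrays labelled 3 weeks and all 6 control arrays, chosen by label and not by signal. Each array held the pooled RNA of 3 to 5 mice from the whole right lung, and bleomycin had been given by osmotic minipump, a small pump that releases a drug continuously. The 3 week arrays were 4 A/J pools, numbered here as males at 80 mg/kg (array 1), males at 100 mg/kg (array 2), females at 100 mg/kg (array 3) and females at 125 mg/kg (array 4), and 2 pools each of C57BL/6 and C3H/HeJ, males at 100 mg/kg (array 1) and females at 125 mg/kg (array 2). The control arrays were 1 male pool (array 1) and 1 female pool (array 2) of A/J, of C57BL/6 and of C3H/HeJ. In the treated C57BL/6 and C3H/HeJ mice every male pool had the lower and every female pool the higher dose, so that dose and sex cannot be told apart there. The sources used here give neither the age of the mice nor what the controls received. Because each array is 1 pool, the p-values below measure only the spread between these pools.

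Bleomycin is an antitumour drug that, with iron and oxygen, cuts DNA strands, and lung injury is its best known side effect. The lung has little of the hydrolase that inactivates the drug. Broken DNA activates the transcription factor p53, which switches on genes that halt the cell cycle, and injured lung draws in neutrophils and macrophages before fibroblasts lay down new matrix. C57BL/6 mice are known as prone and C3H/HeJ mice as resistant to lung fibrosis after bleomycin, and C3H/HeJ mice carry a defective Toll-like receptor 4.

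The arrays carried the tissue their labels name. The brightest genes included Sftpc, the surfactant protein C of type 2 alveolar cells, at 6827 to 7080.3 at 3 weeks (median 6881) against 6509.9 to 7395 in controls (median 6783). Scgb1a1, the secretoglobin of airway club cells, ran at 6372 to 7080.3 at 3 weeks (median 6881) against 6509.9 to 7760.4 in controls (median 6714). Signals are given throughout as normalised intensities in the arbitrary units of the scanner. Treated arrays were dimmer as deposited, with array medians of 58.4 to 99.85 (median 78.55) against 82.8 to 111.15 (median 94.05) in controls, and all 21 arrays of the series were brought to one distribution before any comparison. For Gapdh the 3' probe set over the 5' one, a sign of RNA integrity, gave 0.821 to 1.16 at 3 weeks and 0.853 to 1.34 in controls. Xist, which only female cells express, and Eif2s3y, a Y-linked gene, matched the sex labels, although Xist reached 409 on C3H/HeJ 3 week array 1 and 287 on A/J 3 week array 1, both labelled male. The same 2 arrays and C57BL/6 control array 2 carried Krt4, a keratin of squamous lining such as the oesophagus, at 661, 463 and 1224, against 5.8 to 12.1 on the other 11. Counts without these 3 arrays are given below where they bear on a result.

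Of 9079 genes tested, 1324 (14.6%) were called changed across the strains, at an adjusted p under 0.05 by limma. Of these 600 (6.61%) were higher and 724 (7.97%) lower at 3 weeks than in controls, and 2604 genes had an unadjusted p under 0.05. A change here is a difference in mean log2(signal + 16), in which a value of 1 is close to a 2-fold ratio of signals, and for dim genes it understates the ratio of signals. The change passed 1 in 74 of the higher and fell below −1 in 23 of the lower genes. With the deposited scaling in place of the common distribution, the median of all genes stood at −0.28 and the split was 180 higher and 2781 lower, so directions are relative to the bulk of genes on an array. In whole lung, fewer cells of a type and less RNA per cell cannot be told apart, and this holds for each group of genes below.

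Of the 1324 called genes, 1299 (98.1%) had the same sign in all 3 strains, against 44.6% of all genes tested. The call itself favours genes of one sign, so this share is a description. The strains' own changes were uneven in size. Among these 1299 genes the largest of the 3 changes lay in C57BL/6 for 824, in C3H/HeJ for 345 and in A/J for 130, and the smallest lay in A/J for 736. A change was then named even where a called gene had one sign in all strains and its smallest strain change was at least 0.5 of its largest. By this rule 446 genes, 33.7% of those called, had even changes, 186 higher (2.05% of all tested) and 260 lower (2.86%). The median change of the 186 was 0.46 for A/J, 0.55 for C57BL/6 and 0.52 for C3H/HeJ, whereas over all 600 called rises it was 0.37, 0.73 and 0.47 in the same strains. The 260 falls had medians of −0.39, −0.46 and −0.45, against −0.32, −0.54 and −0.44 over all 724 called falls. In 334 of the 446 genes every treated array lay beyond every control array of its strain, 149 above and 185 below. Over all genes tested this held for 357 above (3.93%) and 384 below (4.23%). Across strains, 79 of the even rises had all 8 treated arrays above all 6 controls and 61 of the even falls had all 8 below. The share of all genes that met this stricter measure is not given here, so the 79 and 61 are descriptions only. Evenness was chosen from these same values and no test is attached to it. It was judged on 1 probe set per gene, and many further probe sets of the named even genes missed the limit. Without the 3 arrays that carried Krt4, 702 genes were called and 245 were even.

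**Figure D1:**
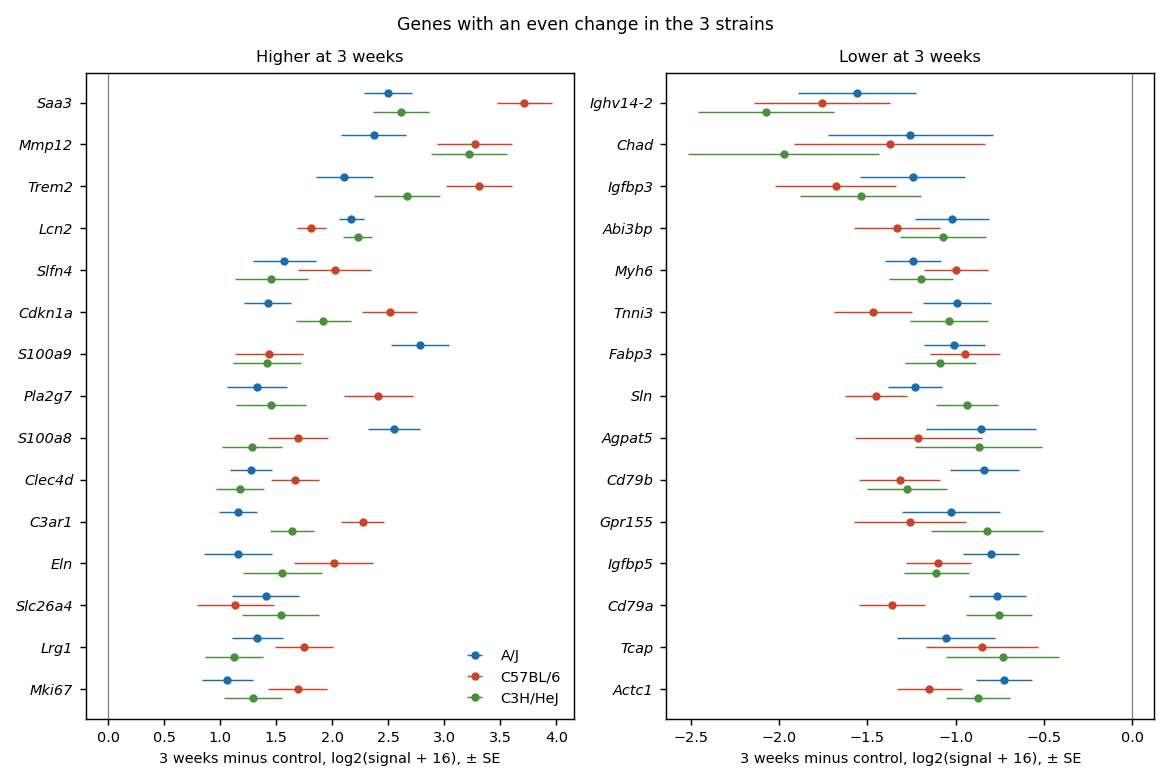
Change at 3 weeks against control (difference in mean log2(signal + 16), horizontal axis) in each of the 3 strains for the 15 even rises and 15 even falls, without overlap in any strain, with the largest smallest-strain change. Points are strain estimates and bars their standard errors. Saa3, Mmp12 and Trem2 stand farthest right, with pooled changes of 2.90, 2.90 and 2.63, and Ighv14-2 farthest left at −1.77.

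The largest even rise was that of Saa3, an acute phase protein made in lung by epithelium and macrophages. Saa3 signals in A/J were 338, 482, 496 and 447 at 3 weeks against 76.9 and 53 in controls, in C57BL/6 961 and 612 against 32.6 and 57.3, and in C3H/HeJ 537 and 464 against 74 and 62.7. Every treated array was far above every control array. The pooled change was 2.90 (SE 0.19, adjusted p = 1.49e-07), a ratio of 7.45 on this scale, and the strain changes were 2.50 for A/J, 3.71 for C57BL/6 and 2.61 for C3H/HeJ. Lcn2, which encodes the iron-siderophore binding protein lipocalin 2 of neutrophil granules and injured epithelium, had the smallest p of all genes named. Lcn2 signals in A/J were 1575, 1564, 1695 and 1730 at 3 weeks against 306 and 406 in controls, in C57BL/6 1964 and 2085 against 534 and 598, and in C3H/HeJ 2752 and 2606 against 594 and 527. All 8 treated arrays were above all 6 controls, and the change was 2.08 (SE 0.08, adjusted p = 1.72e-10) with 2.17 for A/J, 1.81 for C57BL/6 and 2.23 for C3H/HeJ. Lrg1, a secreted acute phase glycoprotein, ran at 1180.4 to 1989.5 at 3 weeks (median 1559) against 382 to 813 in controls (median 697), a change of 1.39 (SE 0.15) with no overlap between the groups.

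Neutrophil genes rose. Of 16 neutrophil markers tested 11 rose and 0 fell, 7 of them evenly, with a median change of 0.71 against −0.01 over all genes. Even rises numbered 4 without A/J control array 1, A/J 3 week array 1, A/J 3 week array 2 or C3H/HeJ control array 2, 4 without the 3 arrays that carried Krt4, and 3 with the deposited scaling. None of the 16 had a called difference between strains, against 2.07% of all genes, and at these n that does not show the strains to be alike. S100a8 and S100a9 encode the pair of calcium-binding proteins that fill the neutrophil cytoplasm. S100a9 signals in A/J were 2219.9, 2613, 4371 and 3452 at 3 weeks against 465 and 399.6 in controls, in C57BL/6 1248 and 1364 against 389 and 572, and in C3H/HeJ 1670 and 1619 against 868 and 422. Every treated array was above every control, and A/J had the largest change of the strains (2.78 for A/J, 1.44 for C57BL/6 and 1.42 for C3H/HeJ). S100a8 ran at 1803 to 4283 at 3 weeks (median 2277) against 489.7 to 1094 in controls (median 566), with strain changes of 2.55 for A/J, 1.70 for C57BL/6 and 1.28 for C3H/HeJ. Csf3r, the receptor for the growth factor that drives neutrophil production, ran at 193 to 556 at 3 weeks (median 371) against 98.2 to 163 in controls (median 109), a change of 1.42 (SE 0.15). Mmp8, the neutrophil collagenase, ran at 107 to 181 at 3 weeks (median 135) against 46.2 to 69.8 in controls (median 66.7) with no overlap, and its change was nearly the same in each strain, 0.93 for A/J, 0.95 for C57BL/6 and 0.96 for C3H/HeJ. Ncf4, a cytosolic subunit of the phagocyte NADPH oxidase, changed by 0.81 (SE 0.07). Il1b and Il1rn, an inflammatory cytokine and the antagonist of its receptor, changed by 0.95 (SE 0.11) and 0.98 (SE 0.13), with strain changes within 0.90 to 1.01 for Il1rn. The summed signal of the 3 defining neutrophil markers was 3391 to 9210 at 3 weeks against 983 to 2126 in controls.

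**Figure D2:**
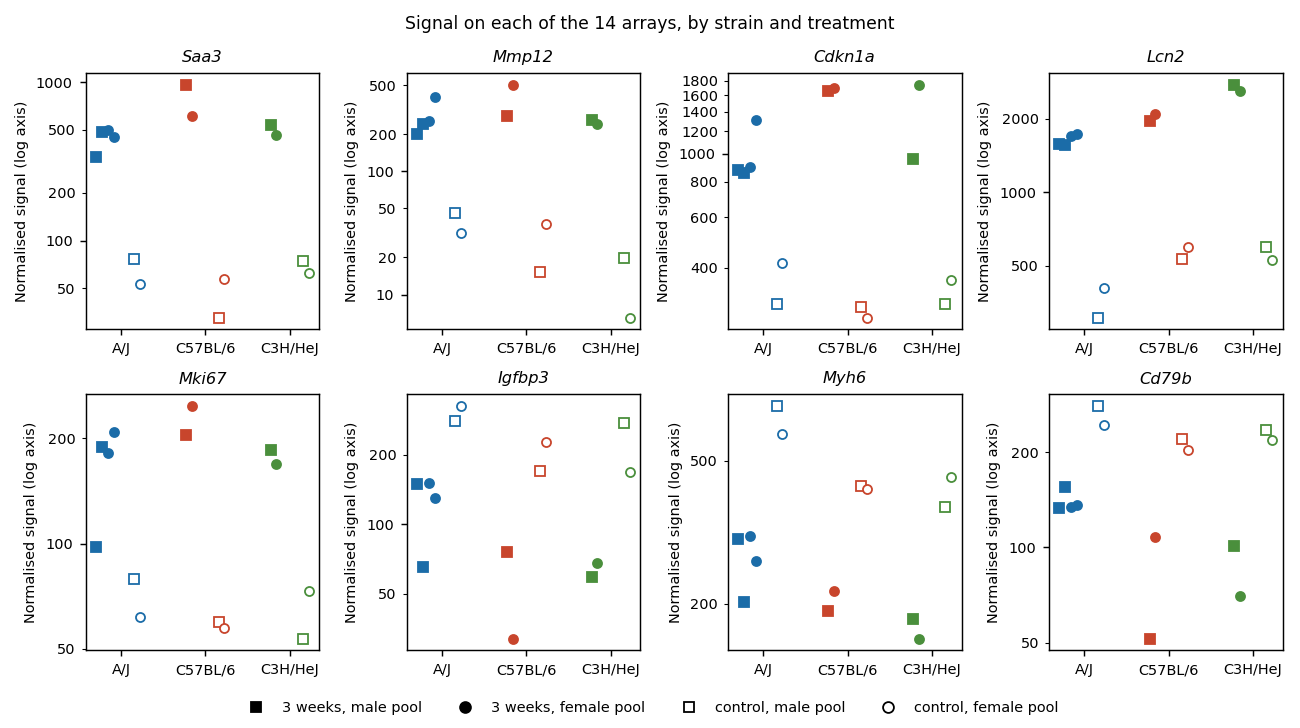
Normalised signal (log axis) of Saa3, Mmp12, Cdkn1a, Lcn2, Mki67, Igfbp3, Myh6 and Cd79b on each of the 14 arrays, with 3 week arrays filled, control arrays open, squares for male and circles for female pools. In each of these 8 genes all 8 treated arrays lie on one side of all 6 controls, above for the first 5 genes and below for Igfbp3, Myh6 and Cd79b.

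Macrophage genes rose too, but most of them unevenly. Of 34 macrophage markers 27 rose and 1 fell, with a median of 0.75. Of the 27 rises 5 were even, against 186 of the 600 rises over all genes. A difference between strains was called for 11 of the 34, against 2.07% (188) of all genes. The summed signal of the 3 defining macrophage markers overlapped between the groups, at 1375 to 3144 at 3 weeks (median 1806) against 1173 to 2629 in controls (median 1969), although 2 of the 3 rose. The third, Chil3, differed between strains in controls, at 614 and 843 in A/J, 2202 and 2346 in C57BL/6 and 1502 and 1332 in C3H/HeJ. The range of the sum across strains therefore holds this strain difference as well. Even rises numbered 8 without A/J control array 2, 3 without C3H/HeJ 3 week array 1 or without the 3 arrays that carried Krt4, and 2 with the deposited scaling, where 18 rose and 4 fell. The even members were led by Trem2, a lipid-sensing receptor of macrophages that carry much lipid, and the macrophage elastase Mmp12, held in the list of matrix proteases, changed by more. Mmp12 signals in A/J were 199, 242, 256 and 399 at 3 weeks against 46.2 and 31.5 in controls, in C57BL/6 280.4 and 502 against 15.1 and 37.1, and in C3H/HeJ 259 and 239.9 against 19.8 and 6.5. Every treated array was far above every control, and the change was 2.90 (SE 0.21, adjusted p = 2.98e-07) with 2.37 for A/J, 3.27 for C57BL/6 and 3.22 for C3H/HeJ. Trem2 signals in A/J were 72.4, 62.4, 68.2 and 138 at 3 weeks against 5 and 8.3 in controls, in C57BL/6 198 and 238 against 8.2 and 6.8, and in C3H/HeJ 176 and 125 against 8.3 and 11.7. Control signals of Trem2 were near the dim end of the array, so that the fitted change of 2.63 (SE 0.20, adjusted p = 4.91e-07) understates the ratio of signals. Lgals3, the galactose-binding lectin galectin 3, changed by 0.85 (SE 0.09), the integrin chain Itgam by 1.01 (SE 0.16) and the inhibitory Fc receptor Fcgr2b by 0.62 (SE 0.09). Outside the macrophage list, Clec4d, a C-type lectin receptor of myeloid cells, ran at 139 to 218 at 3 weeks (median 167) against 34.6 to 73.7 in controls (median 53.5) and changed by 1.36 (SE 0.12). Pla2g7, which breaks down platelet-activating factor, ran at 94 to 308 at 3 weeks (median 171) against 12 to 57.9 in controls (median 46.7) and changed by 1.69 (SE 0.20). Complement and acute phase genes gave 11 rises and 0 falls of 15, 3 of them even, and 7 rises without C3H/HeJ 3 week array 2. C3ar1, the receptor for the complement fragment C3a, was one of the even genes. C3ar1 signals in A/J were 183, 196, 133 and 197 at 3 weeks against 62.1 and 77.9 in controls, in C57BL/6 482 and 423 against 84.6 and 77.3, and in C3H/HeJ 266 and 278 against 64.7 and 89.8. Every treated array was above every control, and the change was 1.64 (SE 0.15, adjusted p = 6.09e-06), with 1.16 for A/J, 2.27 for C57BL/6 and 1.64 for C3H/HeJ.

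Promoters of even rises are shown for 3 members of this myeloid group, each as 300 bases from 250 before to 50 after the annotated start (RefSeq, GRCm38.p6). Slfn4, a Schlafen family gene of myeloid cells, is shown because it holds 3 matches to the core of the interferon regulatory factor site (AANNGAAA on either strand), and Trem2 and C3ar1 because each holds 1 match to the AP-1 site (TGANTCA), which the Fos and Jun factors bind. Capitals mark the matches to the motif named here for each gene. Matches to other motifs stand in lower case, among them 1 of AP-1 in Slfn4 and 1 of the interferon factor core in C3ar1.
Slfn4, chr11:83174936-83175235, plus strand: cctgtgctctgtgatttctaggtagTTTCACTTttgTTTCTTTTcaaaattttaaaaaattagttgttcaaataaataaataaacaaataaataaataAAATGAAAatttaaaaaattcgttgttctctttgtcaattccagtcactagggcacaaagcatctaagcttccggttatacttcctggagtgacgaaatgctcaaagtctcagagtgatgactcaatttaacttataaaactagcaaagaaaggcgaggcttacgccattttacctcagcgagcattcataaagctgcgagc
Trem2, chr17:48346151-48346450, plus strand: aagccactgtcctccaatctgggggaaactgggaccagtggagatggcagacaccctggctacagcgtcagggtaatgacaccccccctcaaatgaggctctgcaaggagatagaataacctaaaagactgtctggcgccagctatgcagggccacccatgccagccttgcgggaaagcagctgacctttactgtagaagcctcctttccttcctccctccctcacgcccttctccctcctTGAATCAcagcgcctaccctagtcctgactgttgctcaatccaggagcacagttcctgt
C3ar1, chr6:122856108-122856407, minus strand: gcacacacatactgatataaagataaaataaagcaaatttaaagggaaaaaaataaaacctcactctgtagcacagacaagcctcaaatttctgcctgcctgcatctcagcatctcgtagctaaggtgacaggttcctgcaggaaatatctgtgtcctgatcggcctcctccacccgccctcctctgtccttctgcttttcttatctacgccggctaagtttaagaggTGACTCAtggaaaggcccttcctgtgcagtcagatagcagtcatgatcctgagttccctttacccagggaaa
The first bases of the Slfn4 matches lie −225 to −152 from the start, those of Trem2 and C3ar1 at −9 and −22. A promoter was held for 161 of the 186 even rises, 210 of the 260 even falls and 7332 of the 9079 genes. The interferon factor core was in 26.1% of promoters of even rises, 18.1% of those of even falls and 18% of all, and AP-1 in 10.6%, 5.24% and 5.4%. E-boxes (CACGTG) were in 7.45%, 8.57% and 9.96%, CCAAT boxes (CCAAT) in 39.1%, 37.1% and 37.7%, and GC boxes (GGGCGG) in 54%, 64.3% and 64.2% of the same sets. These letter matches on both strands are descriptions, with no test, and no match shows that a factor was bound. Slfn4 signals in A/J were 229, 306, 202 and 322 at 3 weeks against 72.1 and 82.2 in controls, in C57BL/6 228 and 316 against 49.5 and 59, and in C3H/HeJ 285 and 589 against 199 and 96.8. Slfn4 changed by 1.67 (SE 0.18, adjusted p = 2.04e-05), and its 8 treated arrays lay above its 6 controls, the closest pair being 202.2 in A/J at 3 weeks and 198.7 in a C3H/HeJ control.

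Interferon-stimulated genes and chemokines also rose. Most of these rises were uneven, as were most over all genes, where 186 of the 600 rises were even. Of 29 interferon-stimulated genes 15 rose and 0 fell (median 0.36), and 2 were even. Of the 29, 9 rose and 1 fell with the deposited scaling. Oasl2, a member of the antiviral oligoadenylate synthetase family, ran at 189 to 547 at 3 weeks (median 322) against 107 to 185 in controls (median 151) and changed by 1.12 (SE 0.14), with 0.90 for A/J, 1.23 for C57BL/6 and 1.32 for C3H/HeJ. Eif2ak2, the kinase PKR that senses double-stranded RNA, changed by 0.50 (SE 0.13). Of 20 chemokines and cytokines 10 rose and 0 fell (median 0.48), and 4 were even, but 1 without the 3 arrays that carried Krt4. Of the 20, 9 rose and 4 fell with the deposited scaling. Ccl6, a chemokine of resident and recruited myeloid cells, ran at 2207 to 3582 at 3 weeks (median 2757) against 933 to 1869.5 in controls (median 1411), a change of 1.01 (SE 0.07, adjusted p = 2.63e-07), with 0.93 for A/J, 1.22 for C57BL/6 and 0.90 for C3H/HeJ. Ccl17, a ligand of the chemokine receptor Ccr4 of T cells, changed by 0.84 (SE 0.11).

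Lysosomal enzymes and matrix proteases rose. Of 25 lysosomal enzymes 15 rose and 0 fell, 8 of them evenly (median 0.40). The even ones numbered 5 without A/J 3 week array 4, A/J control array 2 or C57BL/6 3 week array 1, and 5 without the 3 arrays that carried Krt4. Of 20 matrix proteases and inhibitors 10 rose and 0 fell, 3 evenly (median 0.37), and 5 evenly without C3H/HeJ 3 week array 2. Ctsk, the collagen-cutting cathepsin K, had 329 to 1081 at 3 weeks (median 603) against 134 to 297 in controls (median 276). Its change was 1.22 (SE 0.13, adjusted p = 1.90e-05), largest in C3H/HeJ (1.06 for A/J, 1.07 for C57BL/6 and 1.60 for C3H/HeJ). Ctsd, an aspartic protease, was bright in both groups, at 3317 to 5031 at 3 weeks (median 4184) against 1557 to 2506 in controls (median 2016). It changed by 1.0 (SE 0.10), the cysteine protease Ctsb by 0.71 (SE 0.07) and Ctsl by 0.52 (SE 0.08). Mmp19, a matrix metalloprotease, changed by 0.91 (SE 0.20), although its treated and control arrays overlapped in A/J. With the deposited scaling 5 of the 25 lysosomal genes rose, 1 of them evenly, and 3 fell, with a list median of 0.08, which is 0.36 above that of all genes.

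Collagen genes rose by less than 1 in most cases. Of 17 collagens 11 rose and 0 fell, 5 of them evenly, with a median of 0.44 (0.30 for A/J, 0.64 for C57BL/6 and 0.46 for C3H/HeJ). Even rises numbered 3 without A/J 3 week array 4, C3H/HeJ 3 week array 1 or the 3 arrays that carried Krt4. With the deposited scaling 2 rose and 1 fell, none evenly, with a list median of 0.21, 0.49 above that of all genes. Col3a1, the fibrillar collagen of soft tissue, changed by 0.58 (SE 0.12, adjusted p = 0.00338), with 0.52 for A/J, 0.51 for C57BL/6 and 0.73 for C3H/HeJ. Col3a1 signals in A/J were 1451, 1517, 1539.6 and 2349.8 at 3 weeks against 1281 and 1062 in controls, in C57BL/6 3443 and 3792 against 2152 and 2997, and in C3H/HeJ 2149 and 3003 against 1495 and 1560. Within every strain the treated arrays lay above the controls, and across strains the groups overlapped. Col4a1 and Col4a2, the main chains of basement membrane collagen, changed by 0.53 (SE 0.08) and 0.52 (SE 0.07), and Col6a1 by 0.44 (SE 0.08). Col1a1, the chain that makes most fibrillar collagen, changed by 0.97 (SE 0.15) but not evenly, with 0.53 for A/J, 1.28 for C57BL/6 and 1.25 for C3H/HeJ. Of 26 matrix glycoproteins and elastic fibre genes 12 rose and 2 fell, 3 rises being even, and 8 of the 26 had a called difference between strains. Eln, which encodes the elastic fibre protein elastin, had the largest even change of these. Eln signals in A/J were 644, 774, 905 and 1590.2 at 3 weeks against 366 and 446 in controls, in C57BL/6 3250.3 and 2850.1 against 485 and 1131, and in C3H/HeJ 965 and 1084 against 346 and 329. All treated arrays exceeded the controls of their strain, while the C57BL/6 female control reached the range of A/J and C3H/HeJ treated arrays, and the change was 1.53 (SE 0.21, adjusted p = 0.000135). A further Eln probe set changed by 2.79, with 3.00 for A/J, 1.88 for C57BL/6 and 3.44 for C3H/HeJ. The size of the Eln change and the order of the strains thus depended on the probe set. Sparc, a collagen-binding matrix protein, changed by 0.48 (SE 0.05) with 0.41 for A/J, 0.60 for C57BL/6 and 0.43 for C3H/HeJ. Of 14 collagen folding and crosslinking genes 6 rose and 1 fell, but 3 rose without C57BL/6 3 week array 1 or without C57BL/6 control array 2. The median of that list was 0.21, and with the deposited scaling it turned to −0.09. Its even member Bmp1, the procollagen C-proteinase, changed by 0.28 (SE 0.08, adjusted p = 0.024), and the call was lost without any one of 4 arrays.

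Targets of p53 held a few large even rises beside smaller changes both ways. Of 29 tested, 9 rose and 3 fell, of which 7 rises and 1 fall were even. By limma 0 of the 29 had a called difference between strains, against 188 (2.07%) of all genes. At these n that does not show the strains to be alike. The list median was 0.22 and turned to −0.05 with the deposited scaling, 0.23 above that of all genes there. With that scaling 7 rose and 6 fell, and 0 rises and 4 falls were even. At an unadjusted p under 0.05 by limma stood 21 of the 29 targets, against 2604 of all 9079 genes, and at an adjusted p under 0.10 13 rose and 5 fell. Cdkn1a encodes p21, the inhibitor of cyclin-dependent kinases through which p53 halts the cell cycle. Cdkn1a signals in A/J were 881, 855, 899.7 and 1317 at 3 weeks against 299.5 and 415 in controls, in C57BL/6 1652 and 1699.8 against 293 and 268, and in C3H/HeJ 959 and 1741 against 300.1 and 362. The lowest treated signal, 855.1, lay well above the highest control, 415, and the change was 1.90 (SE 0.17, adjusted p = 4.42e-06) with 1.42 for A/J, 2.51 for C57BL/6 and 1.92 for C3H/HeJ. Phlda3, a p53 target that restrains the kinase Akt, varied less. Phlda3 signals in A/J were 971, 1002, 930.1 and 1152 at 3 weeks against 504 and 529.8 in controls, in C57BL/6 1318 and 1210.2 against 447 and 466, and in C3H/HeJ 1173 and 1066 against 473 and 488. Its change was 1.17 (SE 0.08, adjusted p = 2.98e-07). Ccng1, cyclin G1, ran at 599 to 1063 at 3 weeks (median 732) against 314 to 378 in controls (median 342) and changed by 1.07 (SE 0.10), and Aen, an apoptosis-enhancing nuclease, ran at 343 to 409 at 3 weeks (median 367) against 175 to 216 in controls (median 196) and changed by 0.86 (SE 0.07). In these 4 genes all 8 treated arrays lay above all 6 controls. Chosen after their values were seen, Mdm2, the ubiquitin ligase that degrades p53, changed by 0.35 with strain changes of 0.34 for A/J, 0.33 for C57BL/6 and 0.38 for C3H/HeJ, and the nucleotide excision repair gene Xpc fell by 0.47. Psrc1, a spindle-associated protein, had the largest change on the list, 2.10, but missed the limit on evenness with 1.11 for A/J, 2.79 for C57BL/6 and 2.73 for C3H/HeJ.

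**Figure D3:**
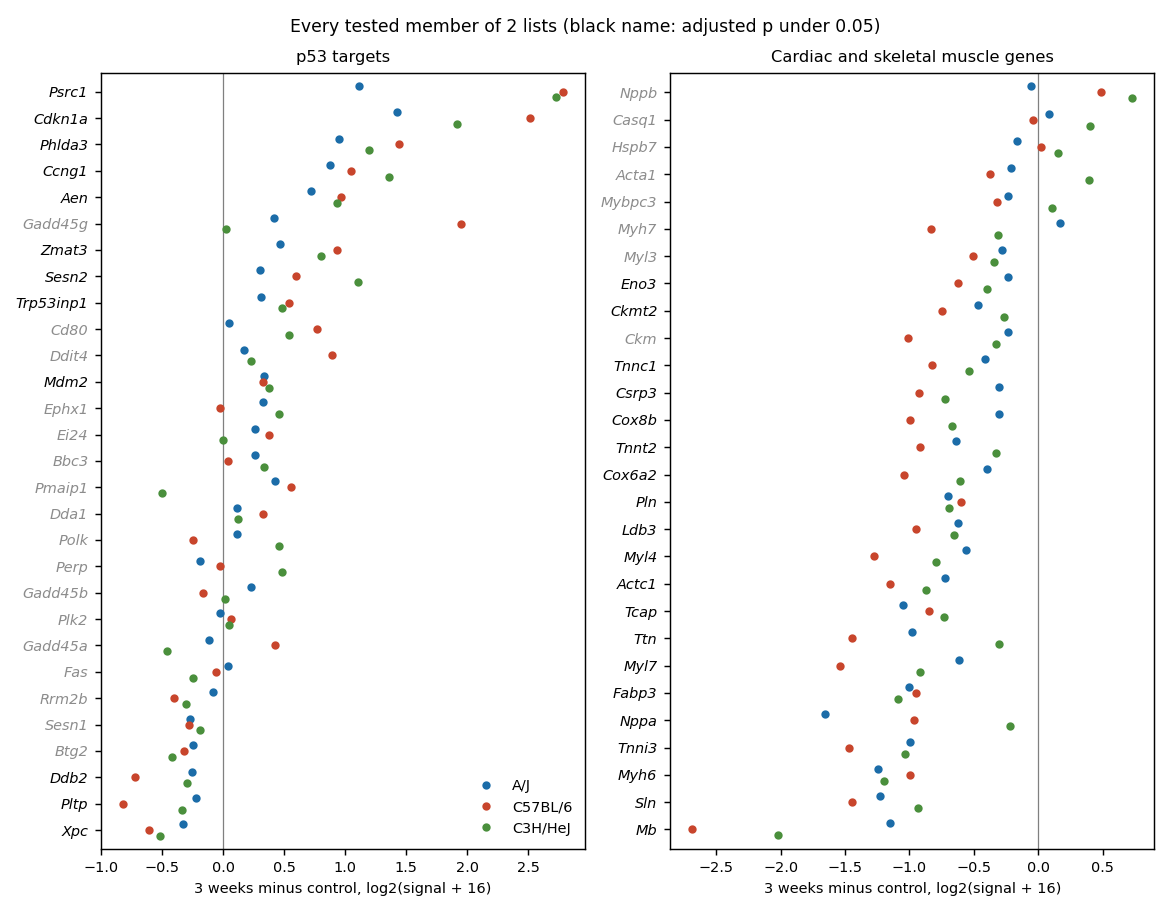
Change at 3 weeks against control (difference in mean log2(signal + 16)) in each strain for the 29 p53 targets and the 28 cardiac and skeletal muscle genes tested, with names of called genes in black. Psrc1, Cdkn1a, Phlda3, Ccng1 and Aen stand highest among the p53 targets and the rest have pooled changes of −0.47 (Xpc) to 0.76 (Gadd45g), whereas 20 of the 28 muscle genes were called lower.

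Cell cycle genes rose beside the inhibitor p21. Of 45 tested 25 rose and 0 fell, with a median of 0.47, and every one of the 45 had a pooled change above 0. Of the 45, 7 were even, but 11 without A/J control array 1, 12 without A/J 3 week array 1, 16 with A/J limited to the doses of the other strains and 3 with the deposited scaling, where 13 rose. The strain medians were 0.22 for A/J, 0.73 for C57BL/6 and 0.52 for C3H/HeJ. Mki67 encodes the Ki-67 protein of dividing cells. Mki67 signals in A/J were 98, 188, 182 and 209 at 3 weeks against 78.9 and 61.6 in controls, in C57BL/6 204 and 248 against 59.8 and 57.3, and in C3H/HeJ 185 and 169 against 53.4 and 73.3. All treated arrays were above all controls, the nearest being A/J 3 week array 1, and the change was 1.32 (SE 0.15, adjusted p = 3.48e-05). Ube2c, the ubiquitin-conjugating enzyme of the anaphase-promoting complex, ran at 90.1 to 174 at 3 weeks (median 131) against 51.2 to 58.1 in controls (median 56.6) and changed by 1.03 (SE 0.14), with 0.97 for A/J, 0.99 for C57BL/6 and 1.14 for C3H/HeJ. Top2a, which untangles DNA in dividing cells, changed by 0.92 (SE 0.12), and Cdc20, an activator of the anaphase-promoting complex, by 0.70 (SE 0.09). Without C57BL/6 14 of the 45 rose, and without the 3 arrays that carried Krt4, 20 rose.

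The promoters of Ube2c and Top2a are shown because each holds 6 matches to the CCAAT box, bound by the factor NF-Y and common in genes of the G2 and M phases. The capitals mark CCAAT or its reverse complement, in the same RefSeq windows of 300 bases (GRCm38.p6).
Ube2c, chr2:164769679-164769978, plus strand: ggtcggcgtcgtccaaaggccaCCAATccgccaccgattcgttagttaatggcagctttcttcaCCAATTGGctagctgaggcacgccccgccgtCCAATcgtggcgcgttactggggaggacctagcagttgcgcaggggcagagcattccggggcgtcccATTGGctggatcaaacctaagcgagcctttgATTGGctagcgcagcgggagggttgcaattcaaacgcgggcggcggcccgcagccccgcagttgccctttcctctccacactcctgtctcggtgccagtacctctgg
Top2a, chr11:99024140-99024439, minus strand: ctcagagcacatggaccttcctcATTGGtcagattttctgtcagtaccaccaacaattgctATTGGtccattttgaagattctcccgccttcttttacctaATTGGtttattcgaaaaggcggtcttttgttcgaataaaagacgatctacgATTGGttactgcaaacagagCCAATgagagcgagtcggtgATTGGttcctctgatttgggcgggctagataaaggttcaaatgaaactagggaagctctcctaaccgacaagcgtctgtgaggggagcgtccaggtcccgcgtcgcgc
The matches of Ube2c lie between −228 and −57 and those of Top2a between −227 and −58, counted from the start to the first base of the box. At least 1 CCAAT box was in 37.7% of all promoters held, and the letters alone do not show that the factor was bound.

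Heart muscle genes fell. In mice, heart muscle cells line the pulmonary veins inside the lung. Of 28 cardiac and skeletal muscle genes 20 fell and 0 rose, 8 of them evenly. The median was −0.64 (−0.51 for A/J, −0.94 for C57BL/6 and −0.57 for C3H/HeJ). No member had a called difference between strains by limma, against 2.07% of all genes. At these n that does not show the strains to be alike. Myh6 encodes the alpha heavy chain of cardiac myosin. Myh6 signals in A/J were 304, 203, 308 and 263 at 3 weeks against 712 and 595 in controls, in C57BL/6 191 and 216 against 426 and 417, and in C3H/HeJ 181 and 159.5 against 372 and 452. All 8 treated arrays were below all 6 controls, and the change was −1.15 (SE 0.10, adjusted p = 3.14e-06) with −1.24 for A/J, −1.0 for C57BL/6 and −1.20 for C3H/HeJ. Tnni3, cardiac troponin I, ran at 115 to 293 at 3 weeks (median 250.4) against 371 to 564 in controls (median 446) and changed by −1.15 (SE 0.13). Sln, the sarcolipin that restrains the calcium pump of atrial muscle, ran at 124 to 293 at 3 weeks (median 209) against 339.9 to 648 in controls (median 427) and changed by −1.21 (SE 0.10). Fabp3, the fatty acid carrier of heart muscle, changed by −1.01 (SE 0.11), with −1.01 for A/J, −0.95 for C57BL/6 and −1.09 for C3H/HeJ. Neither Sln nor Fabp3 overlapped between the 8 and the 6 arrays, whereas Tcap (−0.90, SE 0.17), a cap protein of titin, and the cardiac actin Actc1 (−0.90, SE 0.11) did. The summed signal of the 4 defining heart muscle markers was 1068 to 2116 at 3 weeks against 2768 to 3866 in controls. With C57BL/6 left out 15 of the 28 fell, and with the deposited scaling 24 fell, 18 of them evenly. Even falls numbered 13 without A/J control array 2. How much of the heart or of the large veins was taken with each lung is not stated, and its part in the result was not tested.

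Genes of B cells fell too. Of 15 B and plasma cell markers 11 fell and 0 rose, 8 of them evenly, with a median of −0.65 and strain medians of −0.65 for A/J, −0.75 for C57BL/6 and −0.54 for C3H/HeJ. Even falls numbered 5 without C57BL/6 3 week array 2 or C3H/HeJ 3 week array 2. Cd79b and Cd79a encode the signalling pair of the B cell receptor. Cd79b signals in A/J were 133, 155, 134 and 136 at 3 weeks against 280.1 and 244 in controls, in C57BL/6 51.4 and 108 against 220.1 and 203, and in C3H/HeJ 101 and 70.1 against 234 and 219. Treated and control arrays did not overlap in any strain or across strains, and the change was −1.11 (SE 0.13, adjusted p = 4.55e-05). Cd79a ran at 66.4 to 181 at 3 weeks (median 123) against 209 to 271 in controls (median 232), a change of −0.94 (SE 0.12), again without overlap. Ighv14-2, an immunoglobulin heavy chain variable segment, had the largest even fall of all genes. Ighv14-2 signals in A/J were 15.3, 40.3, 54.8 and 40 at 3 weeks against 158 and 115 in controls, in C57BL/6 6.7 and 23 against 82.1 and 86.7, and in C3H/HeJ 24.6 and 4.8 against 123 and 91.7. Its change was −1.77 (SE 0.21, adjusted p = 4.23e-05), and several treated signals were near the dim end of the array. Transcripts of related segments can bind this probe set, so the segment itself is uncertain. Pou2af1, a B cell transcription coactivator, changed by −0.69 (SE 0.11), and Jchain, which joins secreted IgA and IgM, by −0.68 (SE 0.12). The 3 defining B cell markers summed to 176 to 459 at 3 weeks against 642 to 784 in controls. Of 20 T and NK cell markers 2 rose and 2 fell, against 6.61% and 7.97% of all genes called higher and lower. Their median was −0.11.

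The 15 even falls without overlap in any strain whose smallest strain change was largest also held Igfbp3, Igfbp5, Abi3bp, Gpr155 and Agpat5, which belong to none of the gene lists. Igfbp3 and Igfbp5 encode secreted proteins that bind insulin-like growth factors. Igfbp3 signals in A/J were 149.8, 65, 150 and 129.6 at 3 weeks against 280.2 and 325 in controls, in C57BL/6 75.6 and 31.9 against 169.6 and 226, and in C3H/HeJ 59.1 and 68.1 against 274 and 168. Every treated array was below every control, and the change was −1.46 (SE 0.19, adjusted p = 8.89e-05) with −1.24 for A/J, −1.68 for C57BL/6 and −1.54 for C3H/HeJ. Igfbp5 signals in A/J were 427, 336, 494 and 412 at 3 weeks against 644 and 832 in controls, in C57BL/6 402 and 366 against 721 and 977, and in C3H/HeJ 461 and 419 against 1033 and 904. The change of Igfbp5 was −0.98 (SE 0.10), also without overlap. A further Igfbp5 probe set changed by −0.14, with 0.59 for A/J, −0.75 for C57BL/6 and −0.50 for C3H/HeJ. The even fall of Igfbp5 thus rests on the probe set used. Abi3bp, an extracellular matrix protein, ran at 96.1 to 166 at 3 weeks (median 122) against 225 to 332 in controls (median 316) and changed by −1.13 (SE 0.13), with −1.02 for A/J, −1.33 for C57BL/6 and −1.07 for C3H/HeJ. Gpr155, a cholesterol sensor of the lysosome membrane, changed by −1.04 (SE 0.17), and Agpat5, an acyltransferase of phospholipid synthesis, by −0.97 (SE 0.19), both with overlap across strains. Slc26a4, the anion exchanger pendrin of airway epithelium, went the other way. Slc26a4 signals in A/J were 132, 317, 209 and 315 at 3 weeks against 78.9 and 75 in controls, in C57BL/6 122 and 236 against 57.1 and 82.5, and in C3H/HeJ 313 and 226 against 85.3 and 76.6. It changed by 1.37 (SE 0.18) with no overlap between the 8 and the 6 arrays.

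Airway secretory, endothelial and adipocyte genes fell in part, and the counts of the first 2 lists depended on single arrays. Of 27 airway secretory genes 16 fell and 2 rose (median −0.27), 3 falls being even, but 10 fell without C57BL/6 control array 2, which carried Krt4, and 11 without all 3 arrays that did, while 22 fell with the deposited scaling, 10 of them evenly. Chad, which encodes the matrix protein chondroadherin, changed by −1.51 (SE 0.29). Chad signals in A/J were 17.9, 14, 15.4 and 67.2 at 3 weeks against 68.2 and 94.6 in controls, in C57BL/6 14.6 and 111 against 134 and 158, and in C3H/HeJ 7.9 and 6.2 against 61.8 and 89. Both A/J 3 week array 4 and C57BL/6 3 week array 2, the female pools at 125 mg/kg, stood above the rest of the treated arrays, while the C3H/HeJ female pool at that dose did not. Gsta4, a glutathione transferase, changed by −0.64 (SE 0.11) and Cckar, a cholecystokinin receptor, by −0.54 (SE 0.11). Of 39 endothelial genes 12 fell and 1 rose (median −0.27), 9 of the 39 with a called difference between strains. With the deposited scaling 29 of the 39 fell, with the strains weighted equally 24, and 7 fell without C57BL/6 3 week array 1 or without C3H/HeJ control array 1, and 6 without C57BL/6 3 week array 2 or without either C57BL/6 control array. Emcn, an endothelial surface sialomucin, changed by −0.54 (SE 0.09) with no overlap between the 8 and the 6 arrays, Klf2, a factor switched on by blood flow, by −0.61 (SE 0.12) and the apelin receptor Aplnr by −0.77 (SE 0.15). Without the 3 arrays that carried Krt4, 5 of the 39 fell. The 4 defining endothelial markers, of which 0 were called by limma, summed to 2056 to 4553 at 3 weeks against 3969 to 4632 in controls. Of 19 adipocyte genes 8 fell and 1 rose (median −0.27), and with any 1 array left out 6 to 8 fell. Adipoq, the fat hormone adiponectin, ran at 44.5 to 186 at 3 weeks (median 122) against 181 to 516 in controls (median 261) and changed by −1.23 (SE 0.24), with overlap between the groups, and the lipid droplet gene Cidea changed by −0.53 (SE 0.13). The summed signal of the defining adipocyte markers was 312 to 1165 at 3 weeks against 1121 to 2016 in controls, and how much fat was taken with each lung was not tested. Of 12 ciliated cell genes 2 fell and 0 rose (median −0.28), against 7.97% of all genes called lower.

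Type 2 alveolar genes were called in both directions and type 1 genes only lower, with more of each lower with the deposited scaling. Over all genes 6.61% were called higher and 7.97% lower in the pooled comparison. Of 28 type 2 alveolar genes 2 rose and 2 fell, none evenly, with a median of −0.03, while 5 had a called difference between strains. Of the 28, 0 rose and 15 fell with the deposited scaling, and with the strains weighted equally 3 rose and 9 fell. Of 17 type 1 alveolar genes 5 fell and 0 rose (median −0.15), and 12 fell with the deposited scaling. The count of 5 was 2 without C3H/HeJ 3 week array 1 or any one of the 4 C57BL/6 arrays, 3 without C3H/HeJ control array 2, and 1 without C3H/HeJ control array 1 or without the 3 arrays that carried Krt4. Its even member Sema3e, a guidance factor, changed by −0.63 (SE 0.19, adjusted p = 0.033), and the call was lost without any one of 6 arrays. Sftpc and Scgb1a1 gave 0.01 (SE 0.04, adjusted p = 0.859) and −0.04 (SE 0.05, adjusted p = 0.633) among the brightest signals on the arrays, whose values a common distribution holds nearly fixed. Blmh, the hydrolase that inactivates bleomycin, gave 0.06 (SE 0.10, adjusted p = 0.755), with −0.03 for A/J, 0.34 for C57BL/6 and −0.11 for C3H/HeJ.

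Genes of TGF-beta signalling were called in both directions. Of 34 TGF-beta, BMP and activin genes 6 rose and 6 fell, 3 and 2 of them evenly, and the median was 0.02. Over all genes 6.61% were called higher and 7.97% lower, with 2.05% even rises and 2.86% even falls. With the deposited scaling 1 rose and 11 fell, 7 of them evenly, with a median of −0.26. Rises numbered 3 without C3H/HeJ control array 2 or any one of the 4 C57BL/6 arrays, falls also 3 without C57BL/6 3 week array 1, and 1 rose and 3 fell without the 3 arrays that carried Krt4. Tgfb1, the ligand most linked to fibrosis, ran at 352 to 659 at 3 weeks (median 502) against 259 to 449 in controls (median 418) and changed by 0.38 (SE 0.12, adjusted p = 0.0479), and the call was lost without any one of 10 of the 14 arrays. Tgfbr2, its type 2 receptor, changed by 0.30 (SE 0.06) with 0.31 for A/J, 0.26 for C57BL/6 and 0.32 for C3H/HeJ, Smad4, the shared transcription factor, by −0.27 (SE 0.07) and the ligand Gdf10 by −0.51 (SE 0.12). Of 20 smooth muscle and myofibroblast genes 1 rose and 2 fell. S100a4, a calcium-binding protein of fibroblasts and macrophages, was the rise. S100a4 signals in A/J were 523, 436, 489 and 536 at 3 weeks against 279.6 and 194 in controls, in C57BL/6 1329 and 984 against 283 and 285, and in C3H/HeJ 576 and 489 against 258 and 207. It changed by 1.34 (SE 0.14) without overlap, against −0.75 (SE 0.09) for Myh11, the myosin heavy chain of smooth muscle.

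Most of the remaining lists held smaller or mixed changes. Over all genes 6.61% were called higher and 7.97% lower, and several of the counts below were near or under these shares. Of 23 genes of DNA break repair and bleomycin handling 1 rose and 1 fell, the fall being Nbn of the break-sensing MRN complex (−0.35, SE 0.10). Of 33 antioxidant and NRF2 target genes 5 rose and 8 fell, and the rises numbered 3 without either A/J control array or C57BL/6 3 week array 2, 2 without C57BL/6 control array 2 and 8 without C3H/HeJ 3 week array 2. Its even rises Gpx1, a glutathione peroxidase, and Txn1, thioredoxin, were small at 0.22 (SE 0.06) and 0.18 (SE 0.05) and turned negative with the deposited scaling. Of 28 PPAR-alpha targets and fatty acid oxidation genes 1 rose and 4 fell, and 14 fell with the deposited scaling, the rise being the lipase inhibitor Angptl4 (0.54, SE 0.14). Of 15 glycolysis genes 3 rose and 2 fell, with Ldha, lactate dehydrogenase, at 0.57 (SE 0.09) and the hexokinase Hk1 at 0.23 (SE 0.06), the second of which turned negative with the deposited scaling. Immediate early genes gave 2 rises and 3 falls of 29, with 6 falls without C57BL/6 control array 2 and 11 with the deposited scaling. Among the 29 were even changes of Ier5 (0.30, SE 0.07), which turned negative with the deposited scaling, and the heat shock gene Hspa1b (−0.31, SE 0.10). Circadian clock genes gave 0 rises and 2 falls of 14, but 7 falls without C57BL/6 control array 2 and 8 with the deposited scaling. The median of this list was −0.33, with −0.43 for A/J, −0.44 for C57BL/6 and −0.24 for C3H/HeJ. Of 31 proteasome genes 2 rose and 0 fell. Of 28 cytosolic ribosomal protein genes 2 fell, with Rpl7 at −0.16 (SE 0.05), and of 49 respiratory chain genes 1 fell, Ndufa6 of complex I (−0.44, SE 0.07). None of the 7 red cell genes was called by limma in the pooled comparison, and 0 of them had an unadjusted p under 0.05. The strain medians of these 7 differed in sign (0.33 for A/J, −0.77 for C57BL/6 and 0.69 for C3H/HeJ), 1 gene had a called difference between strains, and without C57BL/6 3 rose and 0 fell, with a median of 0.54. With 1 array left out at a time, 9 of the named genes lost the call at least once, namely Bmp1, Gpx1, Hk1, Hspa1b, Nbn, Rpl7, Sema3e, Tgfb1 and Txn1.

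**Figure D4:**
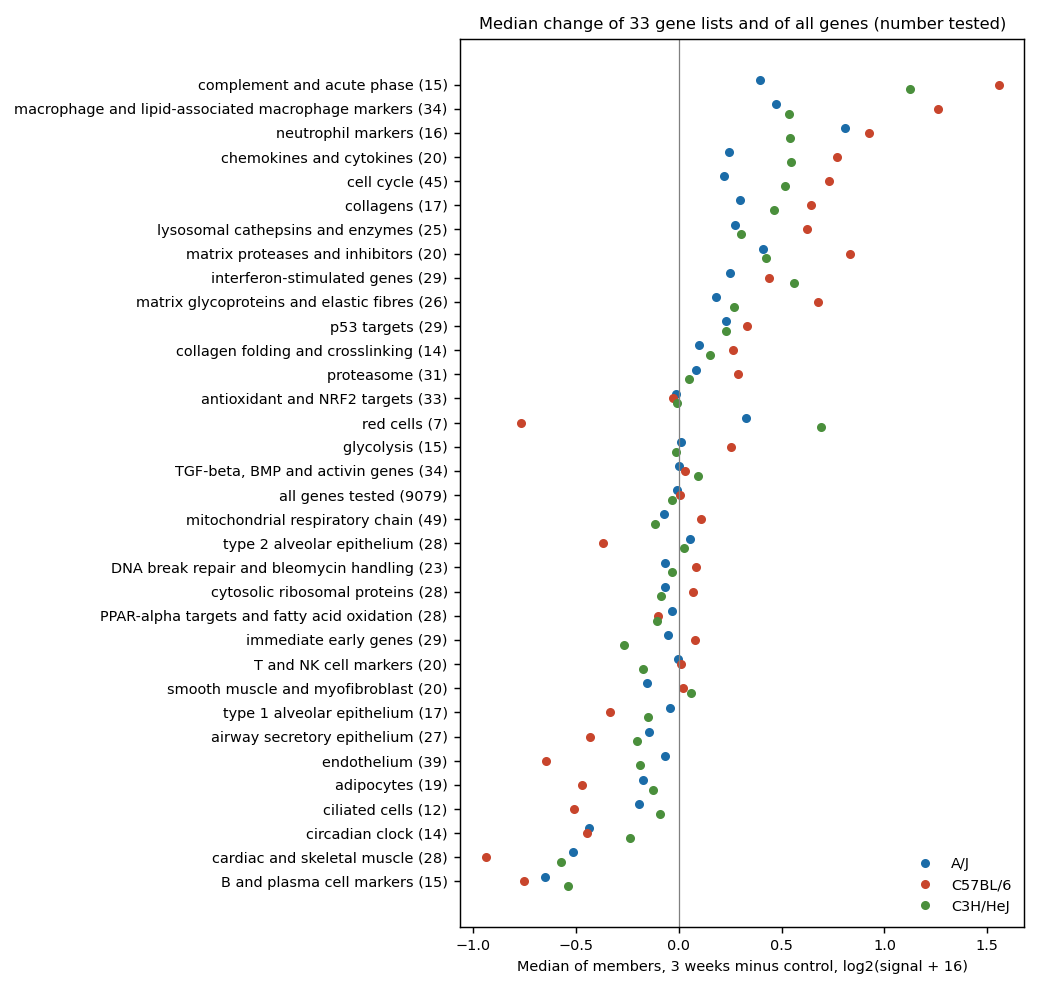
Median change at 3 weeks against control (difference in mean log2(signal + 16)) of the tested members of each of 33 gene lists and of all 9079 genes, in each strain. Complement and acute phase genes (pooled median 0.95) and macrophage markers (0.75) stand highest, B and plasma cell markers (−0.65) and muscle genes (−0.64) lowest, and all genes at −0.01.

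The 33 lists held 96 of the 446 even genes, 63 rises and 33 falls, so that 350 even genes were in no list. At the limit of 0.5 on the ratio of the smallest to the largest strain change, and among genes with a pooled change of at least 1, the members just inside were S100a8 and the Schlafen gene Slfn1 (ratio 0.504 each, Slfn1 with 0.89 for A/J, 1.76 for C57BL/6 and 0.89 for C3H/HeJ). Just outside were the fatty acid carrier Fabp1 (0.497, with −1.52 for A/J, −0.78 for C57BL/6 and −1.57 for C3H/HeJ) and Thrsp (0.495, with −1.01 for A/J, −2.04 for C57BL/6 and −1.74 for C3H/HeJ), a regulator of lipid synthesis.

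Uneven changes were tested directly. A difference between strains in the change at 3 weeks was called for 188 genes (2.07%) by limma's F test of the interaction, 1449 genes had an unadjusted p under 0.05, and 87 of the 188 were also called in the pooled comparison. Without C57BL/6 only 1 gene had a called difference. The 6 called genes with the smallest p all had their largest change in C57BL/6. Mettl7a1, a methyltransferase, fell by 1.79 in C57BL/6, against −0.19 in A/J and −0.41 in C3H/HeJ (adjusted p of the difference = 0.00039). Pcolce2 signals in A/J were 525, 506, 547 and 645 at 3 weeks against 776 and 730.4 in controls, in C57BL/6 224 and 291 against 1246 and 1194, and in C3H/HeJ 582 and 587 against 754 and 771. Pcolce2, an enhancer of procollagen cleavage, changed by −0.43 for A/J, −2.19 for C57BL/6 and −0.37 for C3H/HeJ, and Inmt, an amine methyltransferase abundant in lung, by −0.10 for A/J, −1.30 for C57BL/6 and −0.31 for C3H/HeJ (adjusted p = 0.00039 for each). Gpnmb, a glycoprotein of lipid-laden macrophages, changed by 1.90 for A/J, 3.58 for C57BL/6 and 1.64 for C3H/HeJ (adjusted p = 0.00254). Gpnmb signals in A/J were 639.6, 558, 545 and 822 at 3 weeks against 167 and 149.5 in controls, in C57BL/6 1143 and 998 against 70.8 and 78.2, and in C3H/HeJ 868 and 766 against 245 and 255. Its control signal was lowest in C57BL/6, and all treated arrays were above all controls. The lysosomal protease Lgmn changed by 0.43 for A/J, 1.84 for C57BL/6 and 0.66 for C3H/HeJ and the chemokine Ccl9 by 1.01 for A/J, 2.64 for C57BL/6 and 1.67 for C3H/HeJ (adjusted p = 0.0047 and 0.0047). Timp1, the inhibitor of matrix metalloproteases, changed by 1.35 for A/J, 3.36 for C57BL/6 and 1.67 for C3H/HeJ (adjusted p = 0.00736) and Fn1, the matrix protein fibronectin, by 0.62 for A/J, 1.67 for C57BL/6 and 0.96 for C3H/HeJ (adjusted p = 0.0406). A further Fn1 probe set changed by −0.02 for A/J, 0.76 for C57BL/6 and 0.82 for C3H/HeJ, so the strain pattern of Fn1 rests on the probe set used. The count of 188 depended on single arrays. It was 53 without A/J control array 1, 90 without A/J control array 2, 48 without C57BL/6 3 week array 1, 116 without C57BL/6 3 week array 2, 55 without C57BL/6 control array 1, 73 without C57BL/6 control array 2, 420 without C3H/HeJ 3 week array 1, 89 without C3H/HeJ control array 1 and 111 without C3H/HeJ control array 2.

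**Figure D5:**
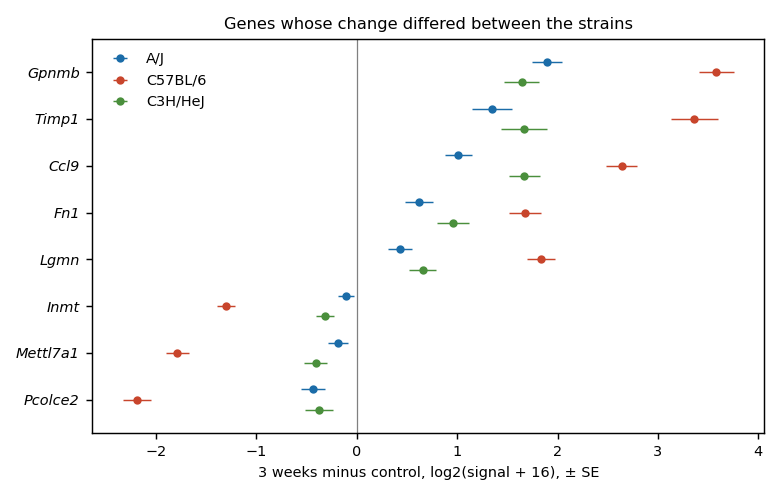
Change at 3 weeks against control (difference in mean log2(signal + 16)) in each strain, with standard errors as bars, for 8 genes with a called difference between strains. C57BL/6 lies farthest from 0 in each, as for Timp1 with 1.35 for A/J, 3.36 for C57BL/6 and 1.67 for C3H/HeJ.

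The later arrays were set against the same controls, so their values are given side by side with no test between them. Mean log2 differences from the strain's control for Saa3 were 2.50 at 3 weeks and 0.93 at 6 weeks in A/J, 3.71 at 3 weeks, 2.63 at 6 weeks and 4.11 when moribund in C57BL/6, and 2.61 at 3 weeks and 0.51 at 6 weeks in C3H/HeJ. Mmp12 had 2.37 at 3 weeks and 2.32 at 6 weeks in A/J, 3.27 at 3 weeks, 3.88 at 6 weeks and 2.96 when moribund in C57BL/6, and 3.22 at 3 weeks and 3.70 at 6 weeks in C3H/HeJ. The 6 week value of Saa3 was below its 3 week value in each strain, and that of Mmp12 was above it in C57BL/6 and C3H/HeJ. Cdkn1a had 1.42 at 3 weeks and 0.86 at 6 weeks in A/J, 2.51 at 3 weeks, 2.39 at 6 weeks and 2.53 when moribund in C57BL/6, and 1.92 at 3 weeks and 1.01 at 6 weeks in C3H/HeJ. Mki67 had 1.06 at 3 weeks and 0.51 at 6 weeks in A/J, 1.69 at 3 weeks, 0.92 at 6 weeks and 0.46 when moribund in C57BL/6, and 1.29 at 3 weeks and 0.44 at 6 weeks in C3H/HeJ. Both genes stood above the controls in every one of these groups. Of the falling genes, Igfbp3 had −1.24 at 3 weeks and −1.29 at 6 weeks in A/J, −1.68 at 3 weeks, −1.57 at 6 weeks and −1.29 when moribund in C57BL/6, and −1.54 at 3 weeks and −1.21 at 6 weeks in C3H/HeJ. Myh6 had −1.24 at 3 weeks and −0.71 at 6 weeks in A/J, −1.0 at 3 weeks, −1.01 at 6 weeks and −1.57 when moribund in C57BL/6, and −1.20 at 3 weeks and −0.28 at 6 weeks in C3H/HeJ. Igfbp3 stood at −1.21 or lower in all these groups, while Myh6 lay nearest to 0 in C3H/HeJ at 6 weeks. The C57BL/6 6 week group was a single array, and no time was given for the moribund mice.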

How the data were processed

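The values were intensities of Affymetrix probe sets, as deposited in the series' value table, 1 column for each of 21 arrays. The sources used here do not say how the authors summarised and scaled these intensities. Per the labels, RNA was pooled from 3 to 5 mice for each array.

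The 21 arrays were quantile normalised, log2(value + 16) was taken, the dimmest 33.3% of probe sets were dropped, and each gene was represented by its probe set with the highest mean among those that GEO's platform annotation ties to exactly 1 symbol. Of 22690 probe sets, 64 were controls, 20380 had 1 symbol, 691 several and 1555 none, and 9079 genes were left. Among named genes 31 had a further probe set past the dim filter, and 42 of these 43 probe sets had the same sign of pooled change. That count does not address evenness, which was judged on 1 probe set per gene. Many further probe sets of the named even genes missed the limit on evenness. That of Col3a1 was uneven (0.53 for A/J, 1.57 for C57BL/6 and 0.94 for C3H/HeJ). In the same order, those of Eif2ak2 (0.40, −0.39 and 0.72) and Tgfbr2 (0.54, −0.04 and 0.45) were mixed in sign. Also short of the limit were those of C3ar1 (0.84, 2.02 and 1.54), Col4a1 (0.37, 0.58 and 1.02), Sparc, Mmp19, Cdc20 and Smad4. The same held for those of Ctsb, Aen, Sema3e, Ier5, Hk1, Hspa1b, Rpl7 and Txn1. Ccng1, Il1rn and Fcgr2b had further probe sets both inside and outside the limit. Those of Aplnr (−0.54, −0.84 and −0.48), Cdkn1a, Ccl6 and Eln had 1 sign and met the limit. The 14 arrays were fitted with strain and treatment as terms in limma 3.58.1 (R 4.3.3, lmFit and eBayes with a trend), with Benjamini-Hochberg adjustment over all genes. The median standard error was 0.109. Strain changes and the F test of their difference came from a fit of the 6 group means. The procedure was tested on simulated data with known changes.

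The groups were taken from the labels. Members, gene lists and rules were chosen with earlier results of these data known. Named were the 15 even rises and 15 even falls without overlap whose smallest strain change was largest, up to 4 even members per list with the smallest p, the 6 called genes with the smallest p for a strain difference, 10 fixed genes (Cdkn1a, Mmp12, Saa3, Timp1, Col1a1, Fn1, Tgfb1, Blmh, Sftpc, Scgb1a1), the pairs next to the limit on evenness, and markers. The 33 lists held 990 genes, of which 774 were tested. Alternatives covered scaling, offset, filter, model terms, arrays and strains left out, and limits. Leaving out the 3 dimmest arrays, the 2 males with high Xist and the 3 arrays with Krt4 was chosen after seeing the data. Promoters came from RefSeq (GRCm38.p6), with the most upstream start where a gene had several. Ages, control treatment and dates were not analysed here.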

Additional observations from a re-analysis of the deposited data

Results flagged for a closer look

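In the A/J group at 3 weeks, the only group with 4 arrays, 6 of 100 genes examined had 1 array set apart from the other 3, by a gap that made up most of the group's range. Chance sets an array apart in about 1 of 20 groups, and 6 of 100 genes is near that rate. For Cdkn1a the gap was 0.882 of the range, with 1317 on array 4 (females at 125 mg/kg) against 855.1 to 900 on the others. Array 4 was also apart for Chad (0.879, 67.2 against 14 to 17.9) and Col3a1 (0.878, 2350 against 1451 to 1540). Cd79b was apart on array 2, males at 100 mg/kg (0.870, 155 against 133 to 136), Ccl6 on array 3, females at 100 mg/kg (0.922, 2548 against 2752 to 2770), and Nbn on array 1, males at 80 mg/kg (0.934, 60 against 79.8 to 81.4). Each dose and sex of this group was 1 pool, so dose, sex and pool cannot be told apart.

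A tested difference between strains in the change at 3 weeks marked 8 named genes. The adjusted p by limma was 0.00039 for Mettl7a1, Pcolce2 and Inmt, 0.00254 for Gpnmb, 0.0047 for Lgmn and Ccl9, 0.00736 for Timp1 and 0.0406 for Fn1. On the probe set used, the change was farthest from 0 in C57BL/6 in each, but a further probe set of Fn1 did not share this.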

How the results depend on the processing

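No paired analysis was possible because the replicate numbers only number the pools and do not tie a treated pool to a control pool. The labels do match treated and control pools by sex, and with sex as a further term 1267 genes were called, 158 differed between strains and 434 were even. With the deposited scaling 2961 genes were called (180 higher, 2781 lower), 900 of them among the 1324, 44 differed between strains, 1324 were even (269 of the 446) and 1177 did not overlap in any strain. There Bmp1 stood at −0.0024, Gpx1 at −0.073, Txn1 at −0.097, Ier5 at −0.022, Hk1 at −0.074, Blmh at −0.249 and Sftpc at −0.250. With each array scaled to 1 median, Scgb1a1 stood at 0.014 and 37.4% of calls were higher, against 45.3% in the fit reported. The count of 188 strain differences was 89 with no filter on dim probe sets, 78 with all 21 arrays in the fit, 82 with A/J arrays limited to doses that other strains had, and 350 at an adjusted p under 0.10. With 1 array left out at a time, calls ranged from 935 to 1367, strain differences from 48 to 420, even genes from 321 to 449 and genes without overlap from 798 to 1020, while Sftpc ranged from −0.0021 to 0.037 and Blmh from −0.0064 to 0.114. Without A/J 786 genes were called, 37 differed between strains, 1954 did not overlap and Sftpc stood at −0.013. Without C57BL/6 the counts were 604, 1 and 1137, with Blmh at −0.064 and Scgb1a1 at 0.017, and without C3H/HeJ 708 were called and 1137 did not overlap. A looser limit on evenness left 787 genes and a stricter one 185. Of the settings chosen after seeing the data, leaving out the 2 male arrays with the highest Xist gave 399 strain differences, leaving out the 3 arrays with Krt4 gave 702 calls and 245 even genes, and leaving out the 3 dimmest arrays gave 1230 genes without overlap. Leaving out arrays can only hold or raise the count of genes without overlap, so its rises say nothing of the arrays removed. The cause of the other shifts was not tested, apart from the fewer arrays in some fits. Of the 97 named genes that were called, 66 kept direction and call in every setting run and 31 lost the call in at least 1. The 14 arrays limit the precision, and signals near background understate ratios.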
